A study of Arabidopsis thaliana with 6 samples.

Results

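The 37 genes described here encode the enzymes of the shikimate pathway and of the branches that lead from chorismate to tryptophan and to phenylalanine and tyrosine in Arabidopsis thaliana. They were taken by gene identifier from a list of pathway members, 10 for the shikimate pathway, 15 for the tryptophan branch and 12 for the phenylalanine/tyrosine branch, and the identifiers were found among the 30424 genes of the count tables. The pathway was selected on the measured change of its genes between RGF1 and Mock libraries, with results of that comparison known, and its members were then listed by enzyme step. Fold changes, adjusted p-values and counts of members in that comparison are therefore given as a description and do not support a statement about the pathway as a set.

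The libraries came from the dissected root meristematic zone of seedlings 6 days after germination, 3 libraries after 1 h with 100 nM RGF1 (Root meristem growth factor 1, a secreted peptide that maintains the root meristem) and 3 after 1 h with water (Mock). Both groups were Col-0 seedlings homozygous for the HYP2-GFP transgene, whose fluorescence guided the dissection, in liquid MS medium. Each RNA sample pooled 20 root sections, and 50 ng of total RNA was amplified before library preparation, so counts are not independent molecules and counting floors cover counting error only. Whether the 3 extractions of a treatment had separate plates or days behind them is not stated in the labels. A p-value here therefore reflects the spread between these extractions only, and that spread may be technical. In bulk tissue, fewer cells of a type and less RNA per cell cannot be told apart.

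Total counts ranged from 5421243 to 9495012 per library. Values are CPM, counts divided by the TMM-scaled library size in edgeR, and a count of 3 corresponded to 0.313 to 0.565 CPM. Of 5 meristem markers, PLT1, PLT2, CYCB1;1 and CDKB1;1 were detected in the 6 libraries and WOX5, a marker of the quiescent centre, had counts in 1 library. The summed meristem markers ranged from 54.6 to 91.2 CPM in RGF1 libraries and from 65.7 to 70.5 CPM in Mock libraries. The summed level of 3 leaf photosynthesis genes ranged from 35.96 to 407 CPM in RGF1 libraries and from 171 to 706 CPM in Mock libraries. These summed ranges overlapped, as did those of root hair, xylem and root cap markers, and their part in the results was not tested. Of the single markers, the groups did not overlap for PLT2 and for IRX3, a xylem cellulose synthase. PLT2 had 13.5 to 35.96 CPM in RGF1 libraries and 5.82 to 11.04 CPM in Mock libraries. IRX3 had 0.188 to 3.65 CPM in RGF1 libraries and 4.08 to 6.43 CPM in Mock libraries. Over the tested genes, 7.3% had non-overlapping groups with RGF1 above Mock and 6.18% with RGF1 below Mock. In edgeR 0 of the markers passed, and 1, PLT2, had an unadjusted p under 0.05, at 0.0285.

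Plants make the aromatic amino acids in plastids. The shikimate pathway condenses phosphoenolpyruvate and erythrose 4-phosphate and ends in chorismate, from which anthranilate synthase opens the route to tryptophan and chorismate mutase the route to phenylalanine and tyrosine. Tryptophan is the precursor of indole glucosinolates, camalexin and auxin, and phenylalanine that of phenylpropanoids and lignin. In Arabidopsis, ASA1, DHS1 and CM1 are known from work on wounding, elicitors or pathogens as the inducible genes of their steps.

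After 1 h of RGF1, ASA1, ASB1, TRP1, TSA1 and TSB1 rose by 3.03 to 4.68 times in the fitted fold change. They encode 5 of the 7 enzyme steps of the tryptophan branch. For a sixth step, indole-3-glycerol phosphate synthase, the level of AT2G04400 was higher in the 3 RGF1 libraries and its call depended on the fit. The seventh step, phosphoribosylanthranilate isomerase, had a summed level of 56.5 ± 6.15 CPM after RGF1 and 50.5 ± 6.70 CPM in Mock libraries (SD, n = 3 each), with overlapping groups. In edgeR's quasi-likelihood test 5 of the 36 tested members passed at an adjusted p below 0.05 as higher, where 0.466% of the 16737 tested genes did, and 0 passed as lower, where 0.0299% did. At an unadjusted edgeR p under 0.05 the members counted 8 higher and 0 lower, against 4.26% and 3.5% of the tested genes. DESeq2 called 6 members as higher and 0 as lower, against 1.31% and 0.448% of genes. Limma voom called 4 as higher and 0 as lower, against 0.388% and 0.0239% of genes.

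The libraries with the same replicate number deviated together, and with the replicate number as a block 6 members passed as higher and 0 as lower, against 1.24% and 0.562% of the tested genes. Left out singly from the fit without the block, RGF1 replicate 1 took the number of passing members to 0, and each of RGF1 replicate 2 and Mock replicates 1, 2 and 3 took it to 3. Leaving out RGF1 replicate 3 took it to 4. With the block, the same 6 members passed whichever of the 3 pairs was left out, a check added after seeing the data. Few libraries remained in those fits, and the share of all tested genes that passed in them was not computed. Their constant count of 6 is therefore a description only. The fold changes stayed positive for the 6 genes in each fit with a library or a pair left out. For each gene the lowest RGF1 library lay above the highest Mock library, so leaving out libraries could not turn the sign.

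**Figure D1:**
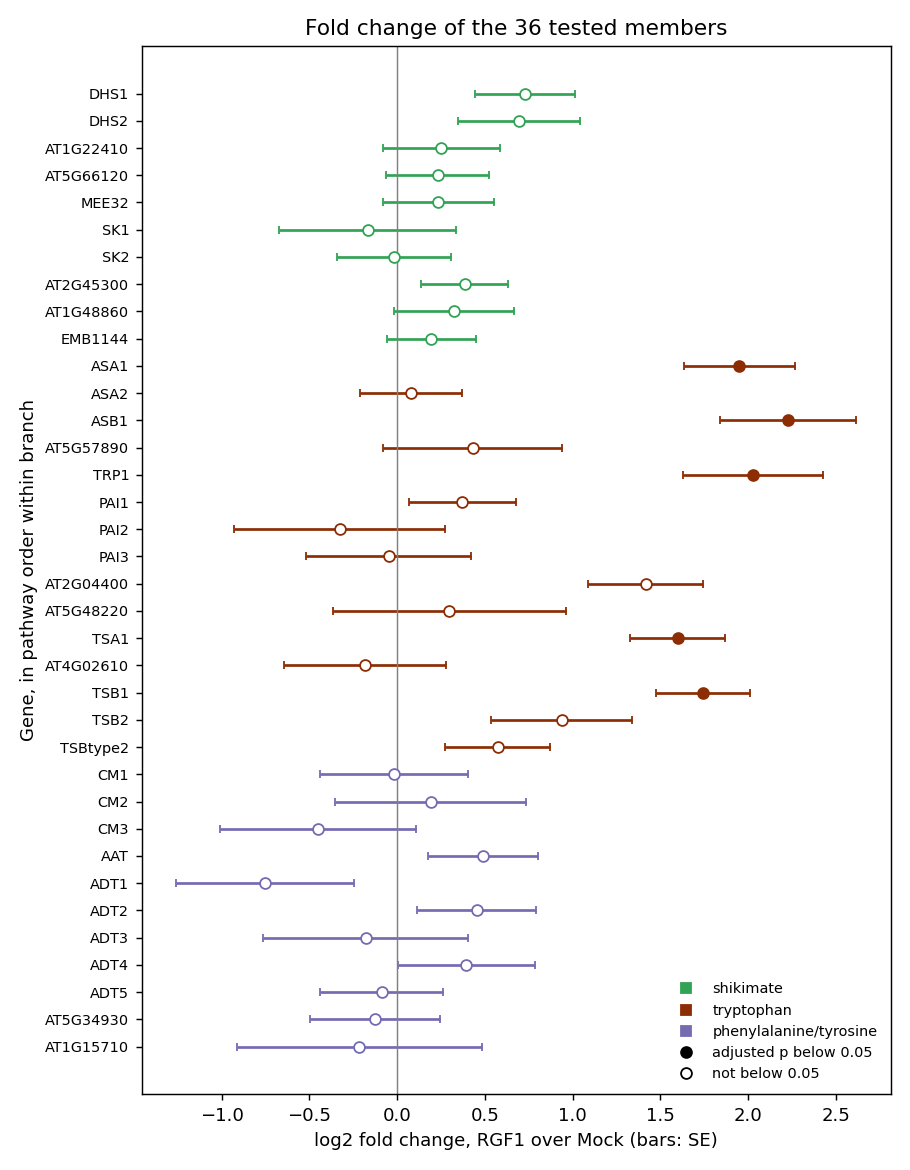
Fitted log2 fold change of RGF1 over Mock (x axis, bars are SE) for the 36 tested members (y axis, coloured by branch), with filled points for an edgeR adjusted p below 0.05 over all tested genes. The 5 filled points, from 1.60 to 2.23, belong to the tryptophan branch, and the shikimate pathway and the phenylalanine/tyrosine branch lie between -0.75 and 0.73.

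Anthranilate synthase commits chorismate to tryptophan and is made of an alpha subunit, which carries the active site and the tryptophan feedback site, and a beta subunit, which supplies ammonia from glutamine. The alpha subunit gene ASA1 (AT5G05730, chromosome 5, 1719533 to 1722933, minus strand, TAIR10.1) had 273, 252 and 144 CPM in RGF1 libraries 1 to 3, against 62.1, 71.6 and 39.4 CPM in Mock libraries 1 to 3. The lowest RGF1 library lay above the highest Mock library, and replicate 3 was the lowest of both groups. ASA1 rose by a log2 of 1.95 ± 0.32 (SE; edgeR adjusted p = 0.0122). It lost the call without RGF1 replicate 1 or 2 (edgeR adjusted p of 0.0881 and 0.0505) and kept it without each of the other libraries.

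The other alpha subunit gene, ASA2 (AT2G29690, chromosome 2, 12693734 to 12697091), had 38.2, 60.2 and 44.5 CPM in RGF1 libraries and 40.6, 46.0 and 48.6 CPM in Mock libraries. The groups overlapped, and the log2 fold change was 0.08 with a 95% interval from -0.55 to 0.70, so that a change of the size seen for ASA1 lies outside it. The sign of this value turned to -0.13 without RGF1 replicate 2. In CPM per kb of exon, ASA1 stood at 7.75, 4.55 and 3.52 times ASA2 in the RGF1 libraries and at 1.66, 1.69 and 0.879 times ASA2 in the Mock libraries. ASA1 thus gave 77.9% to 88.6% of the length-scaled alpha subunit transcripts after RGF1 and 46.8% to 62.8% in Mock libraries.

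The beta subunit gene ASB1 (AT1G25220, chromosome 1, 8836835 to 8839609, minus strand) had 172, 62.5 and 215 CPM in RGF1 libraries, against 31.5, 28.3 and 36.2 CPM in Mock libraries. The groups did not overlap, but RGF1 replicate 2 stood well below the other RGF1 libraries. ASB1 rose by a log2 of 2.23 ± 0.39 (SE; edgeR adjusted p = 0.0197), and this value ranged from 1.87 without RGF1 replicate 3 to 2.59 without RGF1 replicate 2. The call held without RGF1 replicate 2 and was lost without each of the other 5 libraries, with edgeR adjusted p from 0.0519 to 0.128, and with limma voom (adjusted p = 0.0579). The second copy of ASB1, AT5G57890, is annotated as a glutamine amidotransferase and was listed for the same step. It had 15.0, 17.8 and 10.7 CPM in RGF1 libraries and 5.14, 11.4 and 15.8 CPM in Mock libraries, with overlapping groups. ASB1 and AT5G57890 transcripts share 95.5% of bases over 664 bp, which makes their separate counts uncertain. On chromosome 1, 6 further genes match ASB1 in part, the longest match being to AT1G24807, at 97.9% over 1104 bp. Each held at most 4 counts over the RGF1 libraries and at most 3 over the Mock libraries. Whether reads shared with these genes were left out is not stated in the sources used, so the ASB1 counts are uncertain in this respect too.

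The upstream sequences of 3 genes are printed to let the alpha subunit pair be compared and to show the passing member with the most TTGAC matches. Each is the 250 bases before the annotated start, on the gene's strand, from the TAIR10.1 reference, with TTGAC or its reverse complement GTCAA in capitals. TTGAC is the core of the W box, the site of WRKY transcription factors.
ASA1 (chr5:1722934-1723183, minus strand): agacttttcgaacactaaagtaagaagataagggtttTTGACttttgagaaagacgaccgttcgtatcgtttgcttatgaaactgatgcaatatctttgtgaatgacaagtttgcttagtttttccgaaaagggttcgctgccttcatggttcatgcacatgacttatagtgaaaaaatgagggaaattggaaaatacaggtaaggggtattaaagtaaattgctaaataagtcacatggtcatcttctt
ASA2 (chr2:12693484-12693733, plus strand): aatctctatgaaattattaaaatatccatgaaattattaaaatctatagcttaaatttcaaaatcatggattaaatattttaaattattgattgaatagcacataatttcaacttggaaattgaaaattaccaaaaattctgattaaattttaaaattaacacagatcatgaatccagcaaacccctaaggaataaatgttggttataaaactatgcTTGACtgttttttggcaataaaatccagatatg
ASB1 (chr1:8839610-8839859, minus strand): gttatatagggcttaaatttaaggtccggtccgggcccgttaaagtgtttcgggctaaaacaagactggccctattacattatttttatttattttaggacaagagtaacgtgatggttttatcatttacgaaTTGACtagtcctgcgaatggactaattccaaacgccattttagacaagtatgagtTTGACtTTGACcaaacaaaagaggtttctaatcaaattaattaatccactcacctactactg
ASA1 held 1 match, 213 bases before the start, and ASA2 held 1, 33 bases before it. ASB1 held 3, of which 2 lie next to each other at 62 and 56 bases before the start.

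Across the 37 members, 19 held TTGAC on either strand in this window (51.4%), against 44.9% of 27444 protein-coding genes. Of the 6 members that passed with the block 5 held it, and of the 9 other genes of the tryptophan branch 3 did. The as-1 core TGACG was in 7 members (18.9%) and 18.6% of genes, and in 0 of the 6 and 2 of the 9. TTGACG would count for both of these motifs. The GCC box GCCGCC was in 0 members and 1.87% of genes. The MYB-type elements ACCAAC and ACCTACC were in 11 members (29.7%) and 1 member (2.70%), against 11.5% and 1.16% of genes, in 3 and 0 of the 6, and in 4 and 0 of the 9. These are matches of letters in a short window, and they say nothing about binding.

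TRP1, the single gene for the transfer of phosphoribose to anthranilate (AT5G17990, chromosome 5, 5957080 to 5960201), had 359, 257 and 143 CPM in RGF1 libraries, against 40.7, 100.4 and 45.0 CPM in Mock libraries. The groups did not overlap, although the ratio within a pair of the same replicate number was larger in pair 1 (log2 of 3.14) than in pairs 2 and 3 (1.36 and 1.67). TRP1 rose by a log2 of 2.03 ± 0.40 (SE), and its edgeR adjusted p of 0.0452 was the nearest to the threshold among the 5 that passed. It lost the call with library sizes taken as plain totals (edgeR adjusted p = 0.0567) and without RGF1 replicate 1 or 2 or Mock replicate 1 or 3 (0.107 to 0.253). Its 3' part overlaps 302 exonic bases of AT5G18000 on the opposite strand, which had 51 counts in Mock replicate 2 and 0 in the other libraries.

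Phosphoribosylanthranilate isomerase, the next enzyme, is encoded by PAI1, PAI2 and PAI3. PAI1 had 34.9, 33.9 and 39.7 CPM in RGF1 libraries, against 23.5, 30.1 and 30.3 CPM in Mock libraries, which did not overlap. The log2 fold change was 0.37 with a 95% interval from -0.29 to 1.04 and did not pass (edgeR adjusted p = 0.856). PAI2 and PAI3 had log2 fold changes of -0.33 and -0.05, and each changed sign under at least 1 other setting. PAI1 and PAI2 transcripts match at 98.6% over 797 bp and at 99.5% over 811 bp, so their separate values are uncertain. The sum over the 3 genes stood at 1.06, 1.22 and 1.08 times Mock in pairs 1 to 3. Dividing shared reads among the 3 genes would not change this sum, but leaving such reads out would. Which of these was done is not stated in the sources used. PAI1 also matches AT1G07770 (99.4% over 168 bp) and AT5G05580 (99.6% over 268 bp), which are outside the sum. The summed values are therefore uncertain too.

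Indole-3-glycerol phosphate synthase closes the indole ring. AT2G04400 (chromosome 2, 1531148 to 1533737) had 235, 234 and 165 CPM in RGF1 libraries, against 45.6, 116 and 76.2 CPM in Mock libraries. The groups did not overlap, and the within-pair log2 ratio was 2.36, 1.01 and 1.11. Without the block its fitted log2 change of 1.42 ± 0.33 (SE) missed the threshold (edgeR adjusted p = 0.0947), while with the replicate block it was 1.49 and passed (edgeR adjusted p = 0.00825), as it did in DESeq2 (adjusted p = 0.00469). The other gene for this step, AT5G48220, was 1 of the lowest members, at 6.88, 5.29 and 10.7 CPM in RGF1 libraries and 10.9, 4.59 and 2.98 CPM in Mock libraries. Its 95% interval of the log2 fold change, from -1.14 to 1.73, is too wide to tell it from AT2G04400.

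Tryptophan synthase makes indole in its alpha subunit and joins it to serine in its beta subunit. TSA1 (AT3G54640, chromosome 3, 20223034 to 20225523), the alpha subunit, had 232, 176 and 187 CPM in RGF1 libraries, against 49.0, 63.6 and 83.7 CPM in Mock libraries, with no overlap. TSA1 rose by a log2 of 1.60 ± 0.27 (SE; edgeR adjusted p = 0.0155), and the call was lost without RGF1 replicate 1 or Mock replicate 2 (edgeR adjusted p of 0.104 and 0.0983). AT4G02610, annotated as an aldolase-type TIM barrel family protein, was listed for the same step. It had 12.6, 11.9 and 18.8 CPM in RGF1 libraries and 15.3, 9.51 and 24.3 CPM in Mock libraries, so the groups overlapped. The ratio of TSA1 to AT4G02610 per kb was 12.6, 10.2 and 6.82 in RGF1 libraries and 2.20, 4.59 and 2.37 in Mock libraries, which did not overlap. The groups overlapped for 2 other per-kb ratios of the branch, ASB1 to AT5G57890 (2.62 to 14.9 in RGF1 libraries and 1.70 to 4.56 in Mock libraries) and AT2G04400 to AT5G48220 (19.4 to 56.0 in RGF1 libraries and 5.29 to 32.4 in Mock libraries).

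TSB1 (AT5G54810, chromosome 5, 22264594 to 22266902), a beta subunit gene, had the smallest p of the 36 members. It had 404, 303 and 262 CPM in RGF1 libraries, against 81.0, 121 and 87.5 CPM in Mock libraries, with no overlap. TSB1 rose by a log2 of 1.74 ± 0.27 (SE; edgeR adjusted p = 0.00853), and of the 6 libraries only leaving out RGF1 replicate 1 lost the call (edgeR adjusted p = 0.0668). TSB2, 84.3% identical to TSB1 over 1422 bp, had 20.2, 35.5 and 21.5 CPM in RGF1 libraries, against 16.4, 10.4 and 13.5 CPM in Mock libraries. Its groups did not overlap either, and the fitted log2 difference was 0.94 ± 0.40 (SE; edgeR adjusted p = 0.595). TSBtype2, a beta subunit of a separate class, had 67.8, 52.8 and 65.9 CPM in RGF1 libraries and 34.3, 57.0 and 34.0 CPM in Mock libraries, which overlapped through replicate 2. Per kb, TSB1 stood at 9.56 to 22.4 times TSB2 in RGF1 libraries and 5.53 to 13.0 times in Mock libraries, which overlapped. It stood at 4.26 to 6.39 times TSBtype2 in RGF1 libraries and 2.27 to 2.76 times in Mock libraries, which did not.

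**Figure D2:**
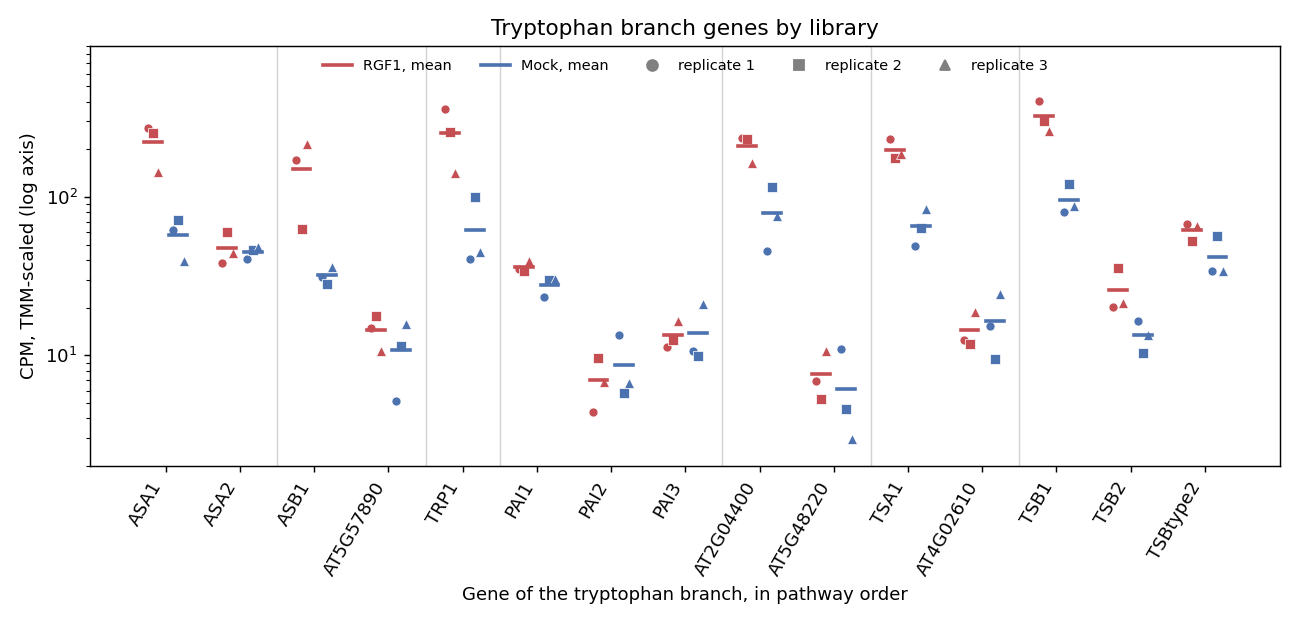
CPM on a log axis for each gene of the tryptophan branch (x axis, steps separated by grey lines), with 1 point per library, shaped by replicate number, and a bar at the mean of each treatment. ASA1, ASB1, TRP1, AT2G04400, TSA1 and TSB1 have the RGF1 points above the Mock points, and for PAI2 and PAI3 the points of the treatments overlap.

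With RGF1 replicate 1 left out, the log2 fold changes of ASA1, ASB1, TRP1, TSA1, TSB1 and AT2G04400 were 1.78, 2.12, 1.69, 1.47, 1.55 and 1.33. That library had the highest level of ASA1, TRP1, AT2G04400, TSA1 and TSB1, but not of ASB1. Within pairs of the same replicate number, the log2 ratios of these 6 genes ranged from 1.01 to 3.14. Their groups did not overlap, so a higher RGF1 library in each pair follows from that and is no separate check.

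**Figure D3:**
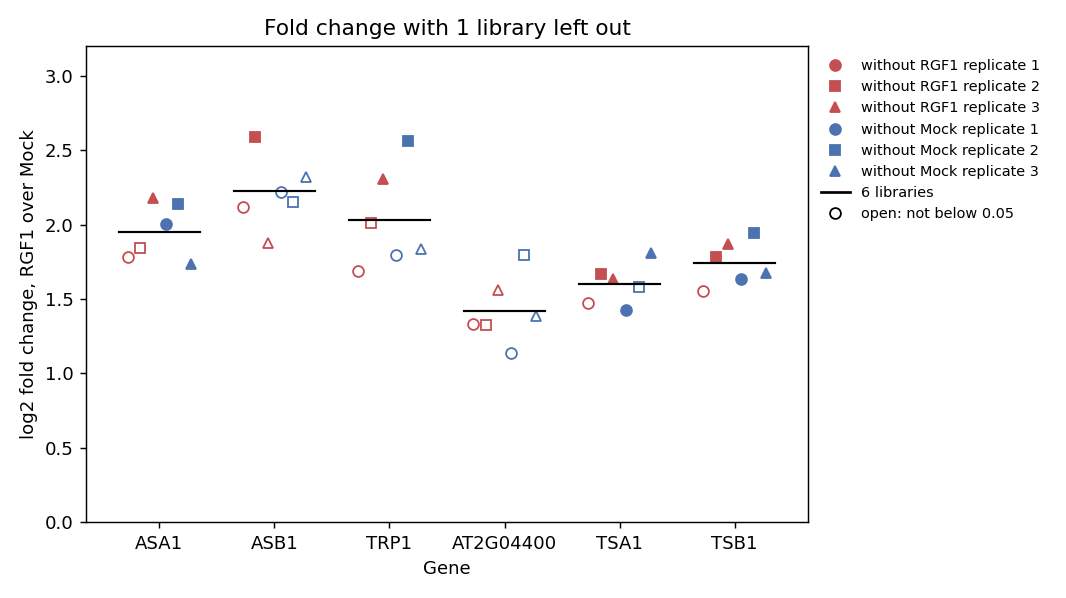
Fitted log2 fold change of RGF1 over Mock (y axis) for 6 tryptophan branch genes with 1 library left out at a time (point shape and colour name the library, filled where the edgeR adjusted p was below 0.05) and with 6 libraries (black line). The points lie between 1.14 and 2.59, and the 6 points without RGF1 replicate 1 are open.

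Levels without RGF1 were compared between genes per kb of exon in the Mock libraries. At each of the 5 steps with a member that passed, that member had the highest mean level of its step, and for TRP1 it is the only gene. For the alpha subunit of anthranilate synthase the order was within the spread, at 26.2 ± 7.53 CPM per kb for ASA1 and 18.8 ± 1.70 CPM per kb for ASA2 (SD, n = 3 each). For indole-3-glycerol phosphate synthase it was 55.5 ± 24.6 CPM per kb for AT2G04400 and 3.41 ± 2.32 CPM per kb for AT5G48220. For the beta subunit of tryptophan synthase it was 53.9 ± 11.9, 21.8 ± 6.86 and 6.71 ± 1.49 CPM per kb for TSB1, TSBtype2 and TSB2. The lowest levels of the tested members, in AT5G48220 and AT1G15710 at 3.41 and 3.66 CPM per kb, came with the widest errors, SEs of the log2 fold change of 0.66 and 0.70, against 0.27 for TSB1.

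Shikimate pathway genes did not pass in either direction, with edgeR, DESeq2, limma voom or the replicate block (0 of 10 in each). At an unadjusted edgeR p under 0.05 there was 1 higher, DHS1, and 0 lower. DAHP synthase, the entry enzyme, is encoded by DHS1, DHS2 and AT1G22410. DHS1 (AT4G39980, chromosome 4, 18539511 to 18542122) had 315, 289 and 213 CPM in RGF1 libraries and 111, 218 and 164 CPM in Mock libraries. RGF1 replicate 3 lay just under Mock replicate 2, and the RGF1 library was higher in 3 of 3 pairs, with log2 ratios of 1.501, 0.41 and 0.38. The fitted log2 difference was 0.73 ± 0.28 (SE), and the edgeR adjusted p was 0.511 without the block and 0.131 with it.

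DHS2 had 24.4, 30.97 and 27.9 CPM in RGF1 libraries, against 17.1, 18.4 and 15.8 CPM in Mock libraries. These groups did not overlap, and the fitted log2 difference, 0.69 ± 0.35 (SE; edgeR adjusted p = 0.680), was close to that of DHS1. AT1G22410 had 125, 247 and 139 CPM in RGF1 libraries and 114, 210.0 and 106 CPM in Mock libraries, with replicate 2 the highest in both groups and a log2 fold change of 0.25. The ratio of DHS1 to DHS2 per kb was 13.9, 10.03 and 8.21 in RGF1 libraries and 6.98, 12.8 and 11.1 in Mock libraries, which overlapped. The ratio of DHS1 to AT1G22410 overlapped as well, at 1.24 to 2.67 in RGF1 libraries and 1.04 to 1.64 in Mock libraries. The mean log2 shift between treatments was 0.07 for DHS1 against DHS2 and 0.51 for DHS1 against AT1G22410, beside 1.88 for ASA1 against ASA2, and the difference between these shifts was not tested.

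**Figure D4:**
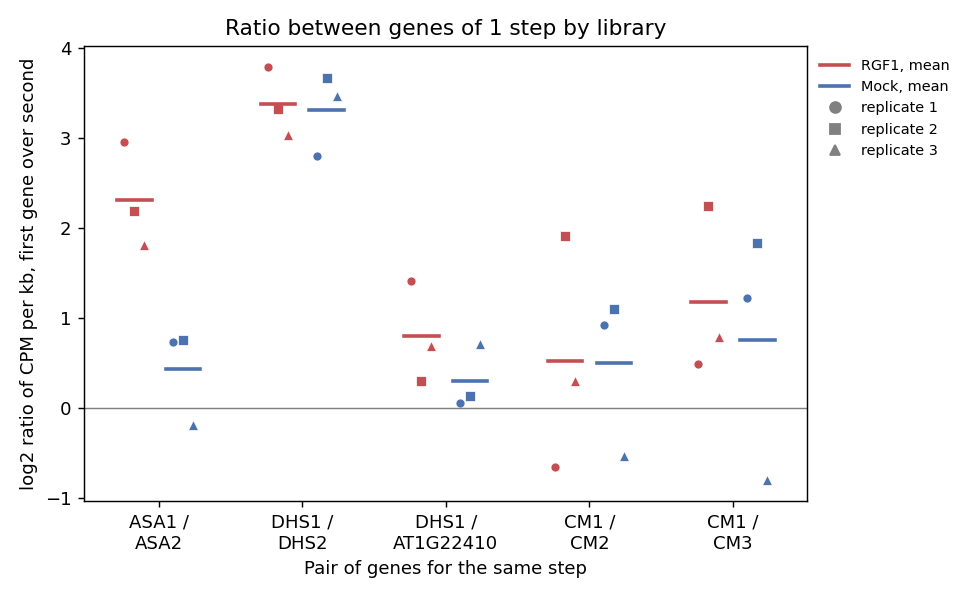
Log2 ratio of CPM per kb between the known inducible gene of a step and another gene of that step (y axis), with 1 point per library and bars at the treatment means. The ASA1 to ASA2 ratio has the RGF1 libraries above the Mock libraries, and the other 4 ratios overlap.

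The remaining steps to chorismate had summed levels at 0.948 to 1.28 times Mock, taken as ratios of means, with overlapping groups at each step. EPSP synthase, the target of glyphosate, had AT2G45300 at 103, 106 and 112 CPM in RGF1 libraries, against 65.8, 94.5 and 85.5 CPM in Mock libraries. Its groups did not overlap, and the fitted log2 difference was 0.39 (edgeR adjusted p = 0.795). The other EPSP synthase gene, AT1G48860, 93.7% identical over 1204 bp, had overlapping groups and a log2 fold change of 0.32. AT5G66120, the 3-dehydroquinate synthase gene, MEE32, the bifunctional dehydroquinate dehydratase and shikimate dehydrogenase gene, and EMB1144, the chorismate synthase gene, had log2 fold changes of 0.23, 0.24 and 0.19. The shikimate kinase genes SK1 and SK2 had -0.17 and -0.02. The highest upper bound of a 95% interval in the shikimate pathway was a log2 fold change of 1.44, for DHS2.

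The phenylalanine/tyrosine branch held 0 members that passed in edgeR, DESeq2, limma voom or with the block, and 0 with an unadjusted edgeR p under 0.05. Chorismate mutase, which turns chorismate into prephenate, is encoded by CM1 and CM3 in plastids and CM2 in the cytosol. CM1 had 26.8, 44.6 and 22.4 CPM in RGF1 libraries and 25.8, 50.9 and 18.0 CPM in Mock libraries. The libraries followed the replicate number more than the treatment, with a log2 fold change of -0.02 and a 95% interval from -0.93 to 0.90. CM2 had 23.4, 6.61 and 10.2 CPM in RGF1 libraries and 7.61, 13.2 and 14.6 CPM in Mock libraries. CM3 had 12.2, 6.02 and 8.29 CPM in RGF1 libraries and 7.07, 9.18 and 20.2 CPM in Mock libraries. The groups overlapped for each, and the sign of the fold change of the 3 genes turned under at least 1 other setting.

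AAT (AT2G22250), an aspartate aminotransferase with prephenate aminotransferase activity, was the single gene of this branch whose groups did not overlap. It had 35.6, 37.7 and 30.9 CPM in RGF1 libraries, against 26.6, 21.8 and 25.9 CPM in Mock libraries, which is a log2 difference of 0.49 ± 0.31 (SE; edgeR adjusted p = 0.794). Of the arogenate dehydratases, which yield phenylalanine, 0 of the 5 tested passed, and each 95% interval of the log2 fold change included 0. ADT1 had 5.83, 19.1 and 9.23 CPM in RGF1 libraries and 17.3, 26.1 and 14.1 CPM in Mock libraries, with the lowest fold change of the members (log2 of -0.75 ± 0.51, SE, edgeR adjusted p = 0.809). ADT2, the most abundant of them, had 86.6, 37.4 and 52.7 CPM in RGF1 libraries and 49.3, 33.7 and 46.3 CPM in Mock libraries. ADT3, ADT4 and ADT5 had log2 fold changes of -0.18, 0.39 and -0.09. The arogenate dehydrogenase genes AT5G34930 and AT1G15710, which yield tyrosine, had -0.13 and -0.21.

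ADT6 (AT1G08250) was the single member that the low-count filter left out, with 1 count in Mock replicate 2 and 0 in the other 5 libraries. Of its 1834 exonic bases, 1756 (95.7%) also lie in exons of AT1G08260 on the opposite strand, the catalytic subunit of DNA polymerase epsilon, which had 363 to 1041 counts in RGF1 libraries and 448 to 737 counts in Mock libraries. How the counting treated strand and overlapping genes is not stated in the sources used, and its part in the low count was not tested. The other members share at most 14.3% of their exonic bases with an opposite-strand gene of the count tables.

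Summed over its 15 genes, the tryptophan branch had 1886, 1524 and 1350.3 CPM in RGF1 libraries, against 480.2, 685 and 565 CPM in Mock libraries. The 3 RGF1 libraries lay above the 3 Mock libraries. The shikimate pathway had 912, 1068 and 799 CPM in RGF1 libraries and 566, 872 and 691 CPM in Mock libraries, and the groups overlapped. The phenylalanine/tyrosine branch had 279, 254 and 238 CPM in RGF1 libraries and 204, 276 and 238 CPM in Mock libraries, which overlapped too. The ratio of means was 2.75, 1.31 and 1.07 in the 3 branches.

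The median log2 fold change was 0.57 over the 15 genes of the tryptophan branch, 0.24 over the 10 of the shikimate pathway and -0.09 over the 11 tested genes of the phenylalanine/tyrosine branch, against -0.01 over the tested genes. In the tryptophan branch 12 were positive and 3 negative, in the shikimate pathway 8 and 2, and in the phenylalanine/tyrosine branch 4 and 7, where 48.8% of tested genes were positive. Non-overlapping groups, with RGF1 above Mock, were seen in 8, 2 and 1 members of the 3 branches, against 7.3% of the tested genes, and with RGF1 below Mock in 0 members, against 6.18%. Of these 11 members, 6 did not pass the test, namely AT2G04400, PAI1, TSB2, DHS2, AT2G45300 and AAT.

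**Figure D5:**
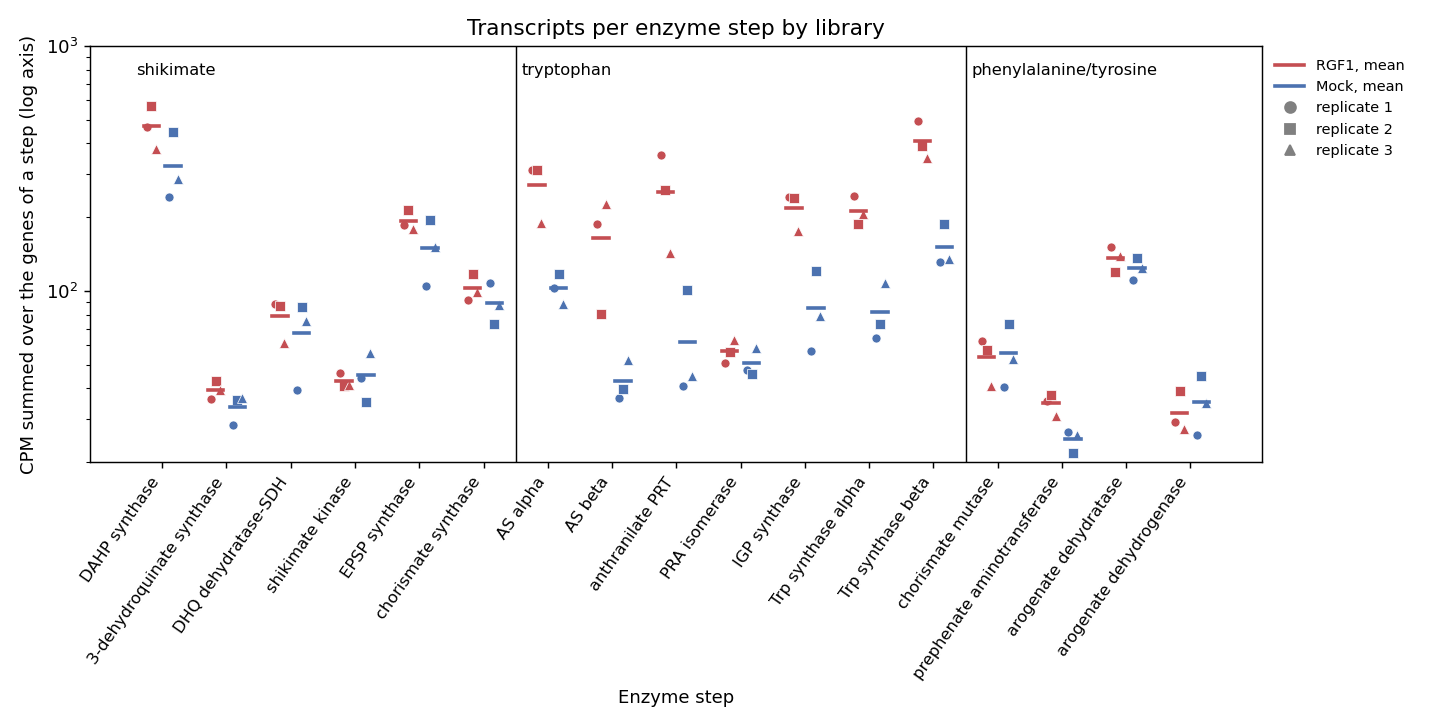
CPM summed over the genes of each of 17 enzyme steps (y axis, log scale), with 1 point per library, shaped by replicate number, and bars at the treatment means. The RGF1 libraries lie above the Mock libraries at 6 of 7 tryptophan steps, 0 of 6 shikimate steps and 1 of 4 phenylalanine/tyrosine steps. The 6 tryptophan sums include ASA1, ASB1, TRP1, AT2G04400, TSA1 or TSB1, and the phenylalanine/tyrosine step is AAT alone. The groups of these genes did not overlap singly, so the step counts are no separate check. For single tested genes the share was 7.3%, and no share was computed for sums.

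Genes that use the products, in 4 lists, and MYB regulators, in 1 list, came to 19 genes, of which 13 were tested. In edgeR 1 passed as higher and 0 as lower, against 0.466% and 0.0299% of the 16737 tested genes. Of 5 tryptophan users, 0 of the 3 tested passed, and at an unadjusted edgeR p under 0.05 there were 0. CYP79B2, which turns tryptophan into indole-3-acetaldoxime, had 41.4, 34.2 and 25.4 CPM in RGF1 libraries and 16.3, 53.8 and 28.7 CPM in Mock libraries. CYP79B3, its paralogue, had a log2 fold change of 0.55 ± 0.83 (SE). TAA1, which starts auxin synthesis from tryptophan, had -0.61 ± 0.46 (SE). The groups overlapped for each of the 3 tested tryptophan users.

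Of the 4 phenylalanine ammonia-lyase genes, 2 were tested and 0 passed. PAL1 had 32.4, 70.3 and 5.65 CPM in RGF1 libraries and 36.5, 24.3 and 5.02 CPM in Mock libraries, with replicate 3 low in both groups. PAL2 had a log2 fold change of 0.34 ± 0.48 (SE). Of the 4 tyrosine users 1 passed, the transaminase family gene AT4G28420, with 5.21, 4.11 and 24.1 CPM in RGF1 libraries and 0 counts in the Mock libraries (edgeR adjusted p = 0.0177). Limma voom did not call AT4G28420 (adjusted p = 0.108). With 0 counts in the Mock libraries, this gene passed the low-count filter through the RGF1 libraries alone, so its call is a description only. TAT7, another tyrosine transaminase gene, averaged 5.21 ± 1.15 CPM in RGF1 libraries and 10.04 ± 2.39 CPM in Mock libraries (SD, n = 3 each). These groups did not overlap, with Mock above RGF1, and the edgeR adjusted p was 0.762. Of 3 other chorismate users 2 were tested and 0 passed, with log2 fold changes of -0.49 for ICS1, the isochorismate synthase of salicylic acid synthesis, and 0.85 for ADCS, of folate synthesis.

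MYB34, MYB51 and MYB122 are known as regulators of tryptophan and indole glucosinolate genes, and 0 of the 2 tested passed. MYB51 had 26.0, 12.6 and 30.7 CPM in RGF1 libraries and 18.2, 3.13 and 0.784 CPM in Mock libraries. It was higher after RGF1 in each pair, but RGF1 replicate 2 lay below Mock replicate 1, and its log2 difference, 1.63 ± 0.80 (SE), missed the threshold (edgeR adjusted p = 0.675). MYB34 had 76.8, 69.4 and 30.5 CPM in RGF1 libraries and 54.9, 65.3 and 77.9 CPM in Mock libraries, which overlapped. MYB122 had at most 1.47 CPM in a library and was not tested.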

How the data were processed

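Read counts per gene were measured in 3 RGF1 and 3 Mock libraries. The deposited values were raw counts that the authors made, 1 table per library. TopHat2 2.1.1, HTSeq and DESeq2, with the build TAIR10, are listed in the submitters' processing notes, without their roles. The sources used here do not give the annotation release, the use of strand or the treatment of multi-mapped reads. Each table held 30424 genes, 8412 of them with 0 counts in the 6 libraries, and 0 rows without a gene.

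The comparison of RGF1 with Mock used edgeR 4.0.16 in R 4.3.3 on the whole table, with TMM scaling, the default low-count filter, which kept 16737 genes and left out 13687, the quasi-likelihood F test and Benjamini-Hochberg adjustment, at an adjusted p below 0.05. SE came from the F statistic, and 95% intervals from the SE. DESeq2 1.42.0, limma voom 3.58.1, other scalings and filters, a replicate block and each library left out were alternatives. The edgeR script was tested on simulated data with 50 genes changed at each size. It called 6% of 2-fold, 64% of 4-fold, 70% of 8-fold and 84% of 16-fold changes. Of its 119 calls, 7 were false. Changes of 2-fold were thus mostly missed, so a member that did not pass is not shown to be unchanged. Deviations from the group means correlated at 0.177, 0.214 and 0.299 between same-numbered libraries, each over 0.1, so the replicate numbers were taken to pair the samples, from the data alone. No 2 libraries agreed within sampling noise.

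Names, positions, exon lengths and sequences came from the RefSeq annotation of TAIR10.1, in which the 37 members were matched. BLAST 2.17.0 found near-copies, kept from 80% identity and 100 aligned bp. The members and lists were chosen with earlier results of these data known. Values by library are given for members that passed in any of 3 fits (edgeR, edgeR with the block, DESeq2) and for steps with a known inducible gene. They are also given for up to 4 further members per branch with the smallest p. AT5G48220 and AT4G02610 were added, each as the other gene of a step with a member that passed. From each list of users and regulators, up to 3 genes are named.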

Additional observations from a re-analysis of the deposited data

How the results depend on the processing

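The number of members that passed as higher, 5, was 4 to 6 under the other scalings, filters and tests and with the replicate block, and 0 to 4 with 1 library left out. The number that passed as lower was 0 throughout. Over the tested genes, 78 higher and 5 lower became 176 and 46 without the low-count filter, 219 and 75 with DESeq2, 208 and 94 with the replicate block, and 39 to 113 and 1 to 5 with 1 library left out. The pairing by replicate number changed the call of 1 member, AT2G04400. With 1 library left out, the median log2 fold change ranged from 0.51 to 1.00 in the tryptophan branch, from 0.12 to 0.48 in the shikimate pathway and from -0.22 to 0.30 in the phenylalanine/tyrosine branch. The causes were not tested. The fold change of 18 members changed sign under at least 1 setting, and 0 of these were among the 6 that passed with or without the block. The groups of those 6 did not overlap, so leaving out libraries could not turn their sign. The lowest counts were those of ADT6, which the low-count filter left out.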
